A study of Mus musculus with 34 samples.

Results

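The G1 control genes of the cell cycle were followed in RNA-seq libraries of the NaJa cell lines. They were the D cyclins Ccnd1, Ccnd2 and Ccnd3, their kinases Cdk4 and Cdk6, the CIP/KIP inhibitors Cdkn1a, Cdkn1b and Cdkn1c, and the INK4 inhibitors Cdkn2a and Cdkn2b. The genes were chosen by name, as the rows of the count table whose Ensembl identifier maps to these 10 symbols, and all 10 were among the 14107 genes of the table. D cyclins bind CDK4 or CDK6, and the active complex phosphorylates the retinoblastoma protein, which releases E2F transcription factors and lets the cell enter S phase. INK4 proteins bind the kinases themselves and keep the cyclin away, whereas CIP/KIP proteins bind cyclin-CDK complexes and above all inhibit CDK2. In intestinal epithelium and its tumors, D cyclin transcription is a known endpoint of mitogenic signaling through RAS, RAF and ERK, and the Cdkn2a locus is a known barrier to oncogenic BRAF.

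NaJa-D, NaJa-F and NaJa-G are mouse colorectal cancer lines on the C57BL/6N background with the genotype VillinCreERT2::BrafV600E/+::Trp53R172H::APCdel, that is, an activated Braf allele, a mutant p53 and loss of Apc. These alleles were recombined by a tamoxifen-inducible Cre under the Villin promoter, which is active in intestinal epithelium, and all groups carried them, DMSO controls included. Each line was grown from the peritoneal lavage of 1 recipient of transplanted colon organoids, so each line is 1 isolate and a difference between lines has no replication over isolates. Cells received 0.5 µM encorafenib, an inhibitor of mutant BRAF, or the matching volume of DMSO, and were harvested for RNA after 1 or 5 days. This gave 12 groups and 34 libraries, with 3 libraries per group, but 2 each for encorafenib day 5 in NaJa-F and DMSO day 5 in NaJa-G. Nothing in the sources used here says that the libraries of a group came from separate experiments, so the p-values measure the spread between these libraries only. Total counts ranged from 46007050 to 80121299 per library. Levels are given below as CPM, a gene's count set against the TMM-scaled total of its library. A gene is named as called where its adjusted p in limma, by Benjamini and Hochberg over the whole table, was below 0.01.

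A pair of libraries needs mention before the values. The title NaJa-D DMSO day 1 replicate 3 belongs to a library whose cell line field names NaJa-G. The title was followed, since the library's log2 levels correlated at 0.995 or above with the other libraries of its titled group and at 0.92 or below with NaJa-G libraries. Replicate 3 of NaJa-D encorafenib day 1 stood apart from replicates 1 and 2, and its counts differed from theirs by 84.9 and 66.6 times the variance of counting noise, against 11 between the remaining pair. Without the first of these libraries, the calls of Cdkn1b with encorafenib in NaJa-D at day 1 (log2 0.43, limma adjusted p = 0.0118), of Ccnd1 and Cdk6 in NaJa-F against NaJa-D (log2 0.18 and 0.14, limma adjusted p = 0.0128 and 0.0193) and of the Cdk4 response in NaJa-G minus NaJa-D at day 1 (log2 -0.21, limma adjusted p = 0.0862) were lost. The Cdk6 call was lost in 11 of 12 fits that left out 1 library, so its loss is not particular to the first library. Without the second, the encorafenib comparison of NaJa-D at day 1 kept its 6 member calls, with Ccnd1 at -0.50, Cdk4 at -0.41, Cdk6 at 0.60, Cdkn1a at 0.39, Cdkn1b at 0.66 and Cdkn2b at 0.51, while Cdkn2a went from 0.26 to 0.09. The Cdk4 response in NaJa-G minus NaJa-D at day 1 was lost there too (log2 -0.20, limma adjusted p = 0.0536). Other groups also held libraries far apart by this measure. The 2 libraries of NaJa-G DMSO day 5 differed by 67.9 times, and those of NaJa-F encorafenib day 5 by 45.9. Replicate 1 of NaJa-G DMSO day 1 differed from replicates 2 and 3 by 47.6 and 45.9, against 3.63 between that pair. These are controls of the NaJa-G results and the treated group of NaJa-F at day 5.

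Among markers of intestinal epithelium, Cdh1 reached at least 494 CPM and Krt8 at least 623 CPM in every library, whereas Vil1 was at 2.96 to 14 CPM in NaJa-D and below 2 CPM in the other two lines. The summed level of all 8 epithelial markers was 5150.4 to 9099 CPM for NaJa-D, 4405 to 7381 for NaJa-F and 2574 to 5214 for NaJa-G. Epcam was at 730.4 to 1177 CPM in NaJa-D, 446 to 625 in NaJa-F and 65.1 to 149.6 in NaJa-G. Cdx2 did not follow the sums and was highest in NaJa-F, at 41.8 to 65.3 CPM. It was at 12.4 to 24.6 CPM in NaJa-D and 1.14 to 9.88 in NaJa-G. The 3 mesenchymal features Vim, Zeb1 and Cdh2 summed to 99.2 to 205 CPM for NaJa-D, 229 to 555 for NaJa-F and 2183 to 3132 for NaJa-G. Of 6 macrophage markers 3 were listed, with sums of 23 to 47.6 CPM, and of 3 fibroblast markers 2 were listed, with sums of 0.0728 to 15.8 CPM. Ptprc, Adgre1 and Itgam (macrophage), Lum (fibroblast) and the endothelial markers Pecam1 and Cdh5 were not among the genes listed. The mesothelium list summed to 497 to 3520.5 CPM, nearly all of it Msln, while Upk3b and Lrrn4 did not pass 6.4 CPM. Mean levels of some of these markers also differed between DMSO and encorafenib inside a line, a difference given here as values with no test. Mean Msln was 1414 CPM in DMSO and 3148 with encorafenib in NaJa-D at day 1, and 530 and 1615 in NaJa-G at day 5. Mean Csf1r was higher with encorafenib in every line and at both days, for example 0.161 and 1.31 CPM in NaJa-G at day 1, as was Dcn, at 0.239 and 12.6 CPM in NaJa-G at day 5. Pdgfrb, from the same list as Dcn, went both ways. Its means in DMSO and encorafenib were 0.475 and 2.79 CPM in NaJa-G at day 5, but 0.0469 and 0.0412 in NaJa-D at day 5. Mean Vim was lower with encorafenib in each of these comparisons, for example 124 and 44.4 CPM in NaJa-D at day 1. Some of the listed markers thus move with the lines and with the drug, and their part in the differences below was not tested. In bulk RNA, fewer cells of a kind and less RNA per cell cannot be told apart.

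Positions are those of GRCm38 in GENCODE M21. The D cyclin genes lie at chr7:144929931-144939925 (-) for Ccnd1, chr6:127125162-127152193 (-) for Ccnd2 and chr17:47505051-47599691 (+) for Ccnd3. The kinase genes lie at chr10:127063534-127067920 (+) for Cdk4 and chr5:3341485-3531008 (+) for Cdk6. The CIP/KIP genes lie at chr17:29090976-29100727 (+) for Cdkn1a, chr6:134920401-134925513 (+) for Cdkn1b and chr7:143458339-143461050 (-) for Cdkn1c. Cdkn2a (ENSMUSG00000044303, chr4:89274471-89294653) and Cdkn2b (ENSMUSG00000073802, chr4:89306299-89311039) are neighbours on the minus strand, 11645 bases apart. Cdkn2a encodes 2 unrelated proteins from separate first exons. GENCODE M21 gives exon 1 of Cdkn2a-201, the p16Ink4a transcript, at chr4:89281986-89282192 and exon 1 of Cdkn2a-202, the p19Arf transcript, at chr4:89294334-89294653. Since 575 bases of the 852 and 895 bases of these transcripts are shared, the gene count cannot tell the kinase inhibitor p16Ink4a from the p53 activator p19Arf. Use of strand in counting was not stated, and exons of some members overlap genes on the opposite strand. The overlap covers 23.4% of the exon bases of Ccnd1 (with LTO1), 19.7% of Cdk4 (with Tspan31), 30.7% of Cdkn1c (with Gm44732) and 4.11% of Ccnd3 (with Bysl), so the counts of these genes may hold reads of their partners.

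Sequences just upstream of the transcription start are shown for Cdk4 and for the INK4 genes, because Cdk4 moved opposite to Cdk6 under encorafenib and because Cdkn2a and Cdkn2b sit side by side and rose together in NaJa-G at day 1. The RefSeq table (build GRCm38.p6) held promoters of 7 of the 10 members, namely Ccnd3, Cdk4, Cdk6, Cdkn1a, Cdkn1b, Cdkn2a and Cdkn2b. The runs below are read 5′ to 3′ in the direction of the gene, start at most 250 bases before the RefSeq start and leave out annotated exon bases. Capitals mark CACGTG, the palindromic E-box bound by MYC and its partners.

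Cdk4, chr10:127063285-127063533 (+): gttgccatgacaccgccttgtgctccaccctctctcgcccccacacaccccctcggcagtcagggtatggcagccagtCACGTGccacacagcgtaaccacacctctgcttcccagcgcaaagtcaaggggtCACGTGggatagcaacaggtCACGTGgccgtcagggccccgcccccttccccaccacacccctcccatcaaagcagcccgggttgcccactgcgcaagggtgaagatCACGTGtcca
Cdkn2a, start of Cdkn2a-202 (p19Arf), chr4:89294654-89294869 (-): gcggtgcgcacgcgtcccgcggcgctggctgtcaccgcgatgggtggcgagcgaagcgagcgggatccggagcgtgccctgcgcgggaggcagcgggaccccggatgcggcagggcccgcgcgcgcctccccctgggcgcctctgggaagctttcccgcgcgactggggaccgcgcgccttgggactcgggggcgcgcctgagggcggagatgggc
Cdkn2a, start of Cdkn2a-201 (p16Ink4a), chr4:89282193-89282442 (-): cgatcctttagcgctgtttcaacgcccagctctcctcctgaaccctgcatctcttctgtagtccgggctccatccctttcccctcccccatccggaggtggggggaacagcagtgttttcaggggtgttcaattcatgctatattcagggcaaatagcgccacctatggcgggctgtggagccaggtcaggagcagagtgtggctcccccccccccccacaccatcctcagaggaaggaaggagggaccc
Cdkn2b, chr4:89311040-89311282 (-): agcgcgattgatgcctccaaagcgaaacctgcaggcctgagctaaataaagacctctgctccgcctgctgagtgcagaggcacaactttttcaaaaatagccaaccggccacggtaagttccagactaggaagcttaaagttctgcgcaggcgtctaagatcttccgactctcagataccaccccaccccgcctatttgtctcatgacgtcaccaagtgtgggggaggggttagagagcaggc

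The Cdk4 window held 4 copies of CACGTG, which begin 172, 118, 98 and 11 bases before the start. Of 32817 RefSeq promoter windows of 300 bases, 7.15% held CACGTG at all and 8 windows (0.0244%) held at least as many copies as Cdk4. Cdk6 held 1 copy, 220 bases before its start, and no other member window held one. The other motifs searched on both strands were TGANTCA (AP-1, in 7.81% of all windows), GTAAACA (FOXO, in 3.65%) and CCGGAAGT (ETS, in 3.89%), of which the members held 1 match, a GTAAACA on the minus strand 243 bases before the first start of Ccnd3. These matches are letters in a window, and binding was not measured.

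In DMSO the lines used D cyclins in different proportions. Levels of different genes are compared here as CPM per kilobase of exon (CPM/kb). The length is the exon union of all annotated transcripts, 4709 bases for Ccnd1, 9409 for Ccnd2 and 8775 for Ccnd3. It can exceed the length of the transcripts expressed, which were not measured, so shares and ratios between genes depend on it. Differences of 1 gene between groups do not. Ccnd1 was the main D cyclin transcript in every group. At day 1 in DMSO, Ccnd1 stood at 118 ± 9.98 CPM/kb for NaJa-D, 136 ± 10.7 for NaJa-F and 172 ± 18.4 for NaJa-G (SD, n = 3 each). Ccnd2 stood at 0.492 ± 0.118, 3.52 ± 0.383 and 21.7 ± 2.36 CPM/kb in the same groups. Its share of the summed D cyclin level per length was therefore 0.39% ± 0.0662 for NaJa-D, 2.36% ± 0.0802 for NaJa-F and 10.7% ± 0.047 for NaJa-G. Ccnd3 made up 5.68% ± 0.114, 6.6% ± 0.225 and 4.1% ± 0.281. With encorafenib the share of Ccnd2 in NaJa-G was 18.9% ± 0.403 at day 1 and 20.4% ± 0.299 at day 5 (n = 3), against 15.6% ± 0.78 in DMSO at day 5 (n = 2). The summed level in NaJa-G was 203 ± 22.2 CPM/kb in DMSO and 348 ± 8.17 with encorafenib at day 1, while in NaJa-D it was 125 ± 10.7 and 101 ± 16.6.

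**Figure D1:**
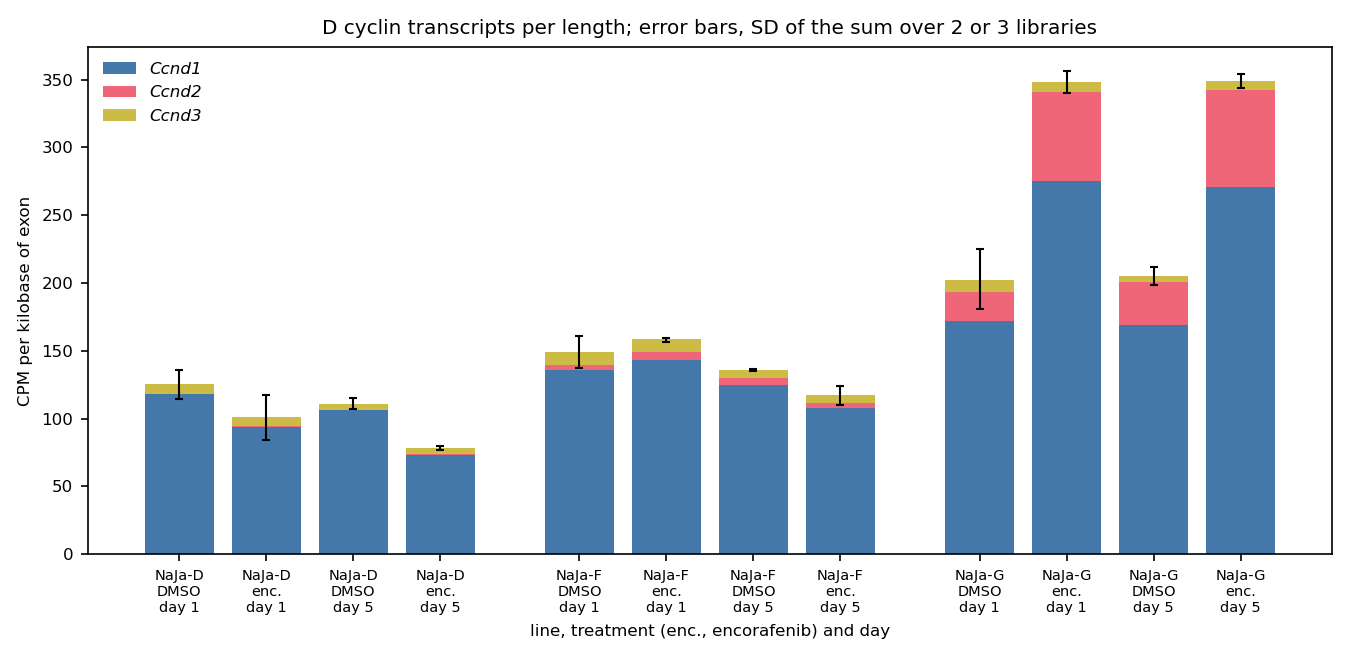
Stacked bars of mean CPM per kilobase of exon (vertical axis) for Ccnd1, Ccnd2 and Ccnd3 for the 12 groups, with error bars for the SD of the sum over 2 or 3 libraries. The encorafenib bars of NaJa-G reach 348 and 349 CPM/kb, those of NaJa-D reach 101 and 78.1, and the Ccnd2 segment is visible mainly in NaJa-G.

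Ccnd2, a D cyclin best known from lymphoid and gonadal cells, separated the lines most among the members. In NaJa-D in DMSO its libraries read 5.86, 3.71 and 4.32 CPM at day 1 and 4.12, 4.37 and 4.17 at day 5. Those of NaJa-F read 35.1, 35.4 and 29 CPM and then 42.8, 44.4 and 43.8. In NaJa-G they read 229.8, 194 and 189 CPM at day 1, and 305 and 297 at day 5. The lines did not overlap at either day. Over the mean of both days Ccnd2 was 8.62-fold higher in NaJa-F than NaJa-D (log2 3.11, SE 0.095, limma adjusted p = 2.2e-21) and 56.2-fold higher in NaJa-G than NaJa-D (log2 5.81, SE 0.097, limma adjusted p = 6.61e-28). In the comparison of NaJa-G with NaJa-D, 0.418% of all genes differed by more.

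Cdk6 ran the other way. In DMSO at day 1 it read 289, 277 and 289 CPM for NaJa-D, 307, 311 and 323 for NaJa-F, and 119.8, 127 and 128 for NaJa-G. All NaJa-G libraries were below all libraries of the other lines. Over both days it was 2.6-fold lower in NaJa-G than NaJa-D (log2 -1.38, SE 0.053, limma adjusted p = 1.47e-19) and 2.89-fold lower than in NaJa-F (log2 -1.53, SE 0.053, limma adjusted p = 2.37e-20). Cdk4 differed less and was highest in NaJa-G, 1.27-fold above NaJa-D (log2 0.34, SE 0.047, limma adjusted p = 1.59e-07) and not called against NaJa-F (log2 0.08, 95% interval of limma -0.02 to 0.17). Per length, Cdk4 was 4.32 ± 0.227 times Cdk6 for NaJa-D, 4.85 ± 0.252 times for NaJa-F and 13.6 ± 1.57 times for NaJa-G at day 1 in DMSO. The size of these ratios rests on exon unions of 3249 bases for Cdk4 and 13989 for Cdk6. In NaJa-D the mean levels were 286 and 285 CPM, so the ratio there came from the lengths.

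Among the inhibitors, Cdkn2a (p16Ink4a and p19Arf) and Cdkn2b (p15Ink4b) were highest in NaJa-G. Over both days in DMSO, Cdkn2a averaged 114 CPM for NaJa-D, 108 for NaJa-F and 179 for NaJa-G, and the NaJa-G libraries lay above those of both other lines (log2 0.64, SE 0.086, limma adjusted p = 1.09e-07 against NaJa-D). Cdkn2b averaged 29.7, 25.5 and 42.2 CPM and was higher in NaJa-G than NaJa-F by 0.70 (SE 0.079, limma adjusted p = 7.06e-09) on the log2 scale. Cdkn1a, which encodes the p53 target p21, was lowest in NaJa-F, with 14.5 CPM against 23.6 in NaJa-D (log2 -0.67, SE 0.051, limma adjusted p = 1.99e-12) and 18.8 in NaJa-G. Cdkn1c, which encodes p57 and comes mainly from the maternal allele, averaged only 2.36 CPM in NaJa-D and 0.999 in NaJa-G, a 2.37-fold difference (log2 -1.24, SE 0.161, limma adjusted p = 7.19e-08). Cdkn1b, which encodes p27, was 1.24-fold lower in NaJa-F than NaJa-D (log2 -0.31, SE 0.089, limma adjusted p = 0.00271), with overlapping libraries, and the difference was -0.19 (limma adjusted p = 0.2) at day 1 alone.

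Of the 10 members, 7 were called between NaJa-F and NaJa-D (5 higher in NaJa-F), where 61.6% of all genes were called. Between NaJa-G and NaJa-D 8 were called (5 higher in NaJa-G), with 67.4% of all genes. Between NaJa-G and NaJa-F 9 were called (6 higher in NaJa-G), with 54.4% of all genes. Some of these calls depended on the day. Cdkn1a in NaJa-G against NaJa-D was 0.02 (limma adjusted p = 0.792) at day 1 alone and -0.30 over both days. Cdk6 in NaJa-F against NaJa-D (0.15, limma adjusted p = 0.00879) passed at neither day alone, with limma adjusted p = 0.0983 at day 1 and 0.0442 at day 5. This call lay just past the threshold and was lost in 14 of 23 alternatives. At day 1 alone the calls of Ccnd1 in NaJa-F against NaJa-D (limma adjusted p = 0.0289) and of Ccnd3 and Cdkn1b in NaJa-G against NaJa-F (limma adjusted p = 0.0541 and 0.621) were lost, and at day 5 alone that of Cdkn1c in NaJa-G against NaJa-F (limma adjusted p = 0.021).

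**Figure D2:**
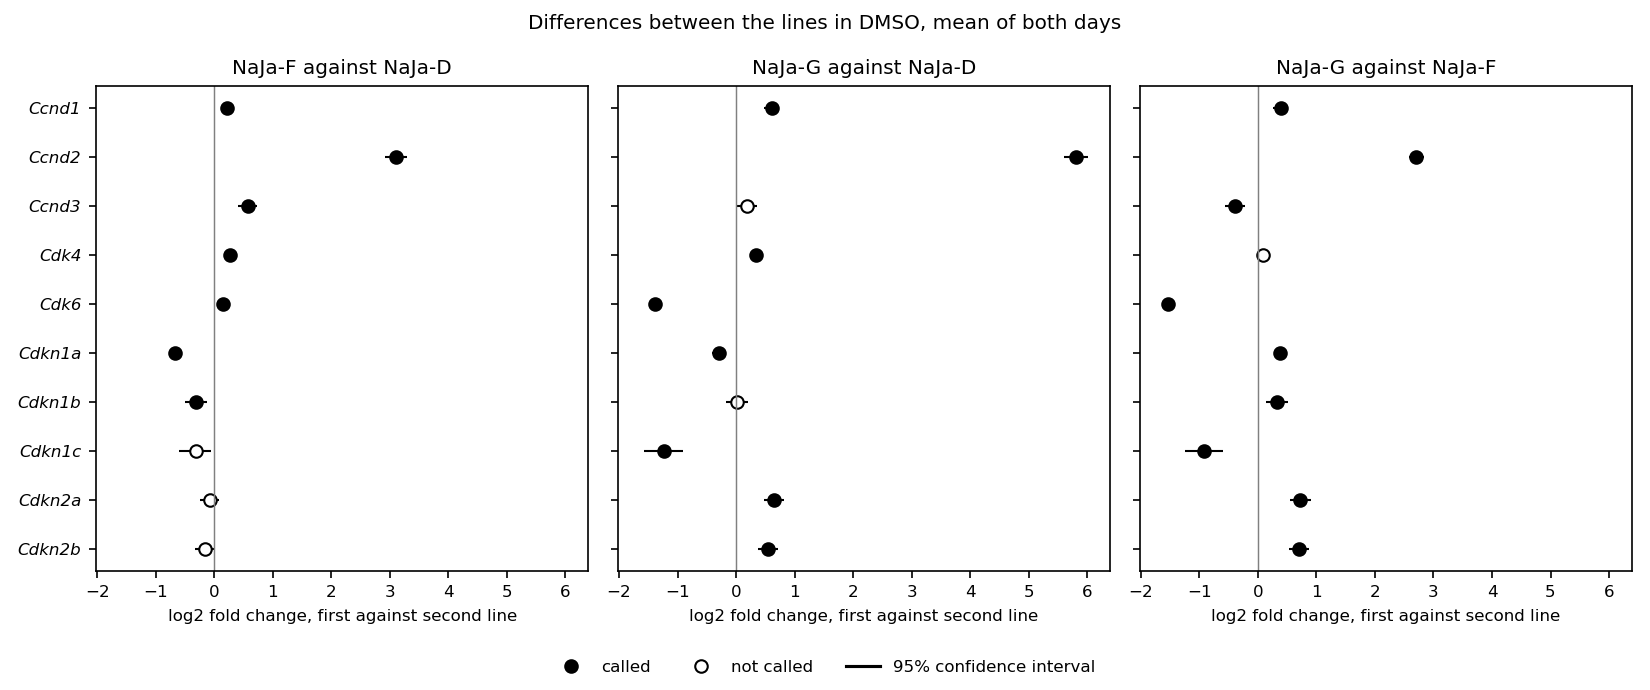
Log2 fold change (horizontal axis) of each of the 10 genes between the lines in DMSO over both days, with 95% confidence intervals and filled points for called genes. Ccnd2 lies at 3.11, 5.81 and 2.70, and Cdk6 lies at -1.38 and -1.53 where NaJa-G is compared with NaJa-D and NaJa-F.

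Encorafenib against DMSO addressed how inhibition of mutant BRAF changes these genes in each line. Of the markers listed for other cell types, Msln, Csf1r and Dcn had higher means with encorafenib, while Pdgfrb went both ways, as given above. Their part in these results was not tested. The D cyclins went in different directions by line. Ccnd1, the D cyclin classically induced by ERK signaling, read 343, 351 and 339.7 CPM with encorafenib and 508, 479 and 513 in DMSO in NaJa-D at day 5. The groups did not overlap, and Ccnd1 was 1.45-fold lower (log2 -0.54, SE 0.078, limma adjusted p = 1.8e-06). At day 1 in NaJa-D it read 404, 397 and 525 CPM with encorafenib and 607, 542 and 516 in DMSO, with overlap through the library that stood apart (log2 -0.33, SE 0.078, limma adjusted p = 0.00065, and -0.50 without that library). The day 1 call was lost without replicate 2 (limma adjusted p = 0.0104) and when these groups alone were fitted (limma adjusted p = 0.0509).

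In NaJa-G Ccnd1 went up. It read 1326, 1278 and 1287 CPM with encorafenib and 912, 768 and 757 in DMSO at day 1, and 1259, 1306 and 1269.9 against 773 and 815 at day 5. The treated and control libraries were apart at both days, with 1.6-fold (log2 0.68, SE 0.084, limma adjusted p = 3.17e-08) and 1.61-fold (log2 0.69, SE 0.094, limma adjusted p = 3.21e-07) higher levels. In NaJa-F it was not called, at 0.08 (SE 0.081) at day 1 and -0.22 (SE 0.089, limma adjusted p = 0.0675) at day 5. LTO1, whose exons overlap those of Ccnd1, moved up in NaJa-D at day 1 (log2 0.46), where Ccnd1 moved down, and up in NaJa-G (0.47 at day 1 and 0.36 at day 5).

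Ccnd2 rose most in the line that had most of it. In NaJa-G it read 647, 594 and 621 CPM with encorafenib at day 1, which was 3.05-fold above DMSO (log2 1.61, SE 0.081, limma adjusted p = 1.66e-16), and 670.1, 672 and 674 CPM at day 5, 2.23-fold above (log2 1.16, SE 0.091, limma adjusted p = 8.1e-12). In NaJa-F the direction turned between the days. The libraries read 59.8, 52.8 and 61.7 CPM with encorafenib at day 1, above all DMSO libraries (log2 0.81, SE 0.079, limma adjusted p = 1.95e-09), and 31.7 and 33 CPM at day 5, below all DMSO libraries (log2 -0.43, SE 0.091, limma adjusted p = 0.000582, and 0.0123 with limma-trend). In NaJa-D it stayed between 3.71 and 5.86 CPM in all groups and was not called. Ccnd3 was called only in NaJa-G at day 5, where it read 58.6, 57.9 and 55.5 CPM against 34.6 and 44.7 in DMSO (log2 0.54, SE 0.124, limma adjusted p = 0.000476), and without DMSO replicate 1 this was 0.36 (limma adjusted p = 0.0396).

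The 2 kinases moved apart. Cdk6 was higher with encorafenib in each of the 6 comparisons and called in 5. Cdk4 was lower in each of the 6 and called in 4. In NaJa-G at day 5, Cdk6 read 211, 211 and 219.8 CPM with encorafenib against 126 and 96.1 in DMSO, a 1.94-fold rise (log2 0.96, SE 0.078, limma adjusted p = 1.71e-11). At day 1 the rise was 1.54-fold in NaJa-G (log2 0.63), 1.49-fold in NaJa-D (log2 0.58) and 1.33-fold in NaJa-F (log2 0.41). At day 5 it was 0.34 (SE 0.083, limma adjusted p = 0.00267) in NaJa-F, and lost without DMSO replicate 1 (limma adjusted p = 0.0163) or encorafenib replicate 1 (limma adjusted p = 0.075), and in NaJa-D it was not called at 0.15 (SE 0.073, limma adjusted p = 0.104).

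Cdk4 fell most in NaJa-G at day 1, from 428, 371 and 380.2 CPM in DMSO to 257, 249 and 257 with encorafenib. The groups were apart, at 1.54-fold lower (log2 -0.62, SE 0.063, limma adjusted p = 5.89e-10). It also fell in NaJa-D at day 1 (log2 -0.33, limma adjusted p = 4.01e-05), in NaJa-G at day 5 (log2 -0.34, limma adjusted p = 0.000104) and in NaJa-F at day 5 (log2 -0.27, limma adjusted p = 0.00358). Lower but not called were the values in NaJa-F at day 1 (log2 -0.19, limma adjusted p = 0.0169) and NaJa-D at day 5 (log2 -0.14, limma adjusted p = 0.0697). The call in NaJa-G at day 5 was lost without DMSO replicate 3 (log2 -0.21, limma adjusted p = 0.0209), and that in NaJa-F at day 5 without encorafenib replicate 1 (limma adjusted p = 0.0482). Per length, the ratio of Cdk4 to Cdk6 in NaJa-G was 5.67 ± 0.139 with encorafenib and 13.6 ± 1.57 in DMSO at day 1. In NaJa-D it was 2.31 ± 0.314 and 4.32 ± 0.227, and in NaJa-F 3.21 ± 0.168 and 4.85 ± 0.252. Tspan31, the overlapping partner of Cdk4, moved the other way in NaJa-G at day 1 (log2 0.40, limma adjusted p = 2.91e-05).

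Both INK4 members rose at day 1 in NaJa-G, and Cdkn2a was called in no other line. Cdkn2b, whose protein p15Ink4b blocks CDK4 and CDK6 and which TGF-beta signaling is known to induce, was called in all 3 lines. In NaJa-G it read 112, 102 and 112 CPM with encorafenib against 41, 32.4 and 30.8 in DMSO, 3.15-fold higher (log2 1.66, SE 0.1, limma adjusted p = 1e-14). In NaJa-D it read 31.5, 30.3 and 40.3 CPM against 21.7, 22.8 and 19.2 (log2 0.66, limma adjusted p = 2.41e-05), and in NaJa-F 39.8, 38.9 and 34.9 against 23.8, 24.7 and 22.2 (log2 0.68, limma adjusted p = 7.7e-06). Treated and control libraries were apart in each line. At day 5 it was still higher in NaJa-D (log2 0.56, SE 0.102, limma adjusted p = 4.6e-05). In NaJa-G the day 5 rise was 0.35 (SE 0.11, limma adjusted p = 0.00672) and did not pass in edgeR (adjusted p = 0.0104), in limma-trend (adjusted p = 0.0108) or without DMSO replicate 1 (0.25, limma adjusted p = 0.114), encorafenib replicate 2 (limma adjusted p = 0.0244) or encorafenib replicate 3 (limma adjusted p = 0.0249). In NaJa-F at day 5 it was not called (log2 0.24, SE 0.12).

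Cdkn2a was called in 1 of the 6 comparisons, NaJa-G at day 1. There it read 383, 386 and 382 CPM with encorafenib against 203, 156 and 156 in DMSO, 2.25-fold higher (log2 1.17, SE 0.118, limma adjusted p = 6.23e-10). All treated libraries lay far above all controls. At day 5 the treated libraries of NaJa-G read 202, 223 and 211 CPM and overlapped the controls at 168 and 205 (log2 0.19, limma adjusted p = 0.196). In NaJa-D and NaJa-F the values were 0.26 and 0.32 at day 1 and 0.29 and -0.11 at day 5, none of them past the threshold in the fit over all groups. When the groups compared were fitted alone, the day 1 value in NaJa-F and the day 5 value in NaJa-D passed (limma adjusted p = 0.00226 and 0.00342).

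The CIP/KIP genes split. Cdkn1a rose in NaJa-D at day 1, from 19.2, 17.8 and 18.3 to 25.4, 23.9 and 26.4 CPM (log2 0.45, limma adjusted p = 4.94e-06), and at day 5, from 29.1, 28.6 and 28.8 to 39.4, 36.4 and 37.9 CPM (log2 0.39, limma adjusted p = 7.9e-06). In NaJa-G it rose at day 1, from 20.2, 17.7 and 18.4 to 26.1, 28.1 and 28.3 CPM (log2 0.55, SE 0.065, limma adjusted p = 1.48e-08), and at day 5 it was lower than DMSO. The day 5 libraries of NaJa-G read 10.4, 10.5 and 10.9 CPM with encorafenib and 16.6 and 21 in DMSO, 1.77-fold lower (log2 -0.82, SE 0.082, limma adjusted p = 9.65e-10). These 3 treated libraries were the lowest of all 34 for Cdkn1a. In NaJa-F it was not called, but at day 5 (log2 0.28, limma adjusted p = 0.0111) it passed in edgeR (adjusted p = 0.00725) and DESeq2 (adjusted p = 0.00605).

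Cdkn1b was called in NaJa-D at day 1 alone (log2 0.47, SE 0.127, limma adjusted p = 0.00272). Its encorafenib libraries read 109, 99.3 and 65.4 CPM and the controls 60.5, 69 and 64.3, so the library that stood apart overlapped the controls. Without it the value was 0.66 (limma adjusted p = 4.1e-06), and the call was lost without encorafenib replicate 1 (0.32, limma adjusted p = 0.04), encorafenib replicate 2 (0.39, limma adjusted p = 0.0219), DMSO replicate 1 (0.39, limma adjusted p = 0.0248) or DMSO replicate 3 (0.43, limma adjusted p = 0.0118). Cdkn1c lay between 0.765 and 3.66 CPM in all libraries and was called in none of the 6 comparisons. In NaJa-F at day 5 it read 1.53 and 2.89 CPM with encorafenib. The difference from DMSO was 0.79 without encorafenib replicate 1 and -0.13 without encorafenib replicate 2.

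Counted together, 6 of the 10 members were called in NaJa-D at day 1 (4 higher), where 44.9% of all genes were called, and 3 at day 5 (2 higher), where 33% were. In NaJa-F 3 were called at day 1 (all higher), where 29.5% of all genes were called, and 3 at day 5 (1 higher), where 18.2% were. In NaJa-G 7 were called at day 1 (6 higher), where 64% of all genes were called, and 7 at day 5 (5 higher), where 53.2% were. The median log2 fold change of the 10 members was 0.59 in NaJa-G at day 1 and 0.27 at day 5, against 0.04 and 0.01 for all genes, and between 0.02 and 0.20 in the other 4 comparisons.

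**Figure D3:**
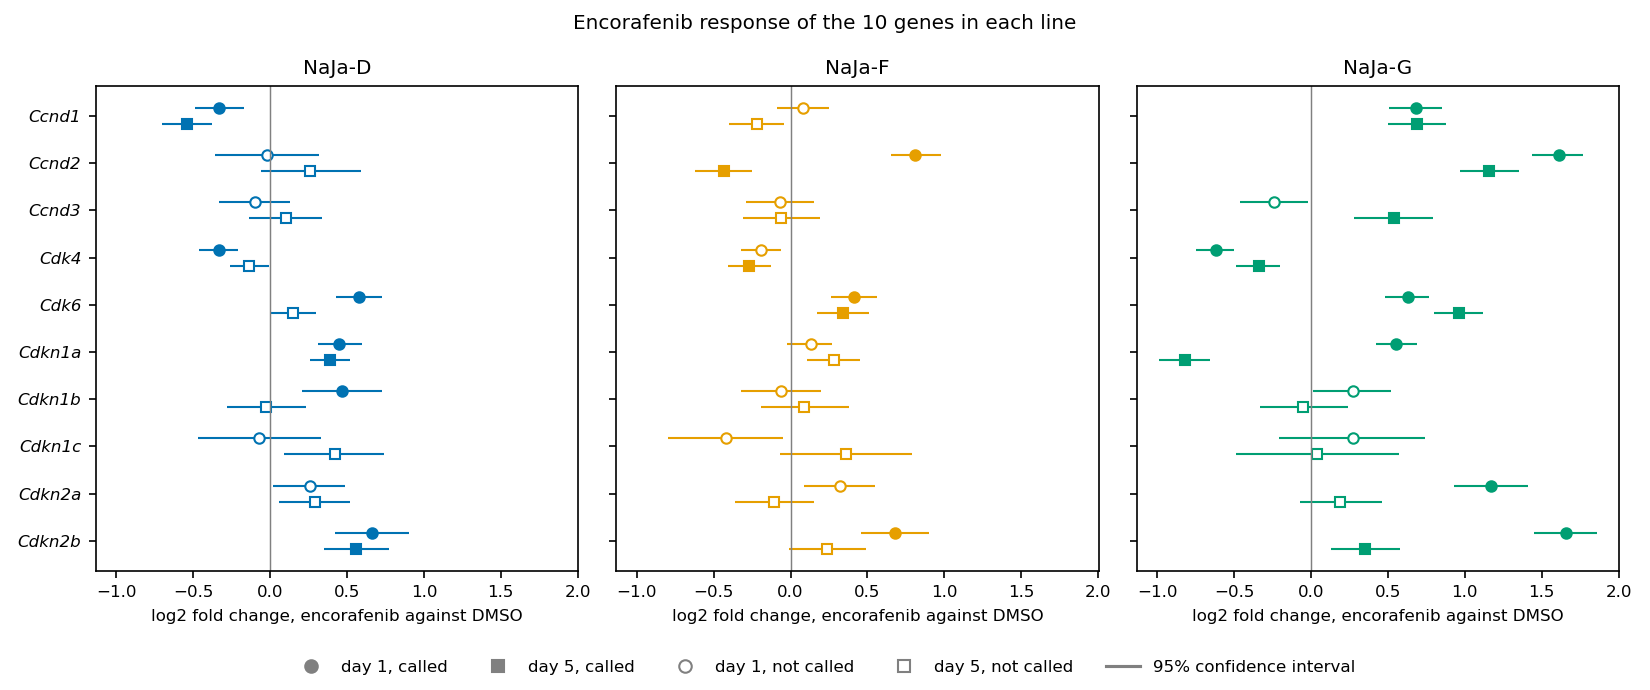
Log2 fold change of encorafenib against DMSO (horizontal axis) for the 10 genes in each line, with 95% confidence intervals, circles for day 1, squares for day 5 and filled symbols for called genes. Ccnd1 lies below 0 in NaJa-D and above 0 in NaJa-G, and Cdkn1a in NaJa-G lies at 0.55 at day 1 and at -0.82 at day 5.

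Some members also differed between day 1 and day 5 in DMSO, without drug. Time in culture, time in DMSO and harvest differ between these days and cannot be told apart. Ccnd3 fell from day 1 to day 5 in DMSO in all 3 lines. In NaJa-D it went from 67.9, 62.5 and 57.3 to 35.6, 34.1 and 37.6 CPM (log2 -0.80, SE 0.116, limma adjusted p = 3.06e-06), in NaJa-F from 85.4, 92.6 and 80.4 to 58, 57.3 and 56 (log2 -0.59, limma adjusted p = 0.000166), and in NaJa-G from 88, 64.3 and 67.2 to 34.6 and 44.7 (log2 -0.88, limma adjusted p = 1.73e-06). The days did not overlap in any line. Cdkn1b rose in NaJa-D from a mean of 64.6 to 98.1 CPM (log2 0.60, limma adjusted p = 0.000376) and in NaJa-G from 60.3 to 108 CPM (log2 0.86, limma adjusted p = 1.3e-05), and in NaJa-F the value was 0.36 (limma adjusted p = 0.0316).

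Cdkn2b rose in NaJa-D from 21.3 to 38.1 CPM (log2 0.84, limma adjusted p = 1.78e-06) and in NaJa-G from 34.7 to 49.6 CPM (log2 0.52, limma adjusted p = 0.000402, and 0.0177 without DMSO day 5 replicate 3). Cdkn1a rose in NaJa-D, from 18.4 to 28.9 CPM (log2 0.65, limma adjusted p = 4.25e-08), and Ccnd2 rose in NaJa-F (log2 0.41, limma adjusted p = 0.000391) and NaJa-G (log2 0.57, limma adjusted p = 7.12e-06). In all, 4 members were called in NaJa-D (3 higher at day 5), with 29% of all genes, 2 in NaJa-F (1 higher), with 16.7%, and 4 in NaJa-G (3 higher), with 34.1%. Scaling by library size alone raised the median of all genes by 0.18 in NaJa-D over time. It left the direction of every called member as it was, and it called 7 members there, with Cdk4 (0.19), Cdk6 (0.37) and Cdkn2a (0.41) added.

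**Figure D4:**
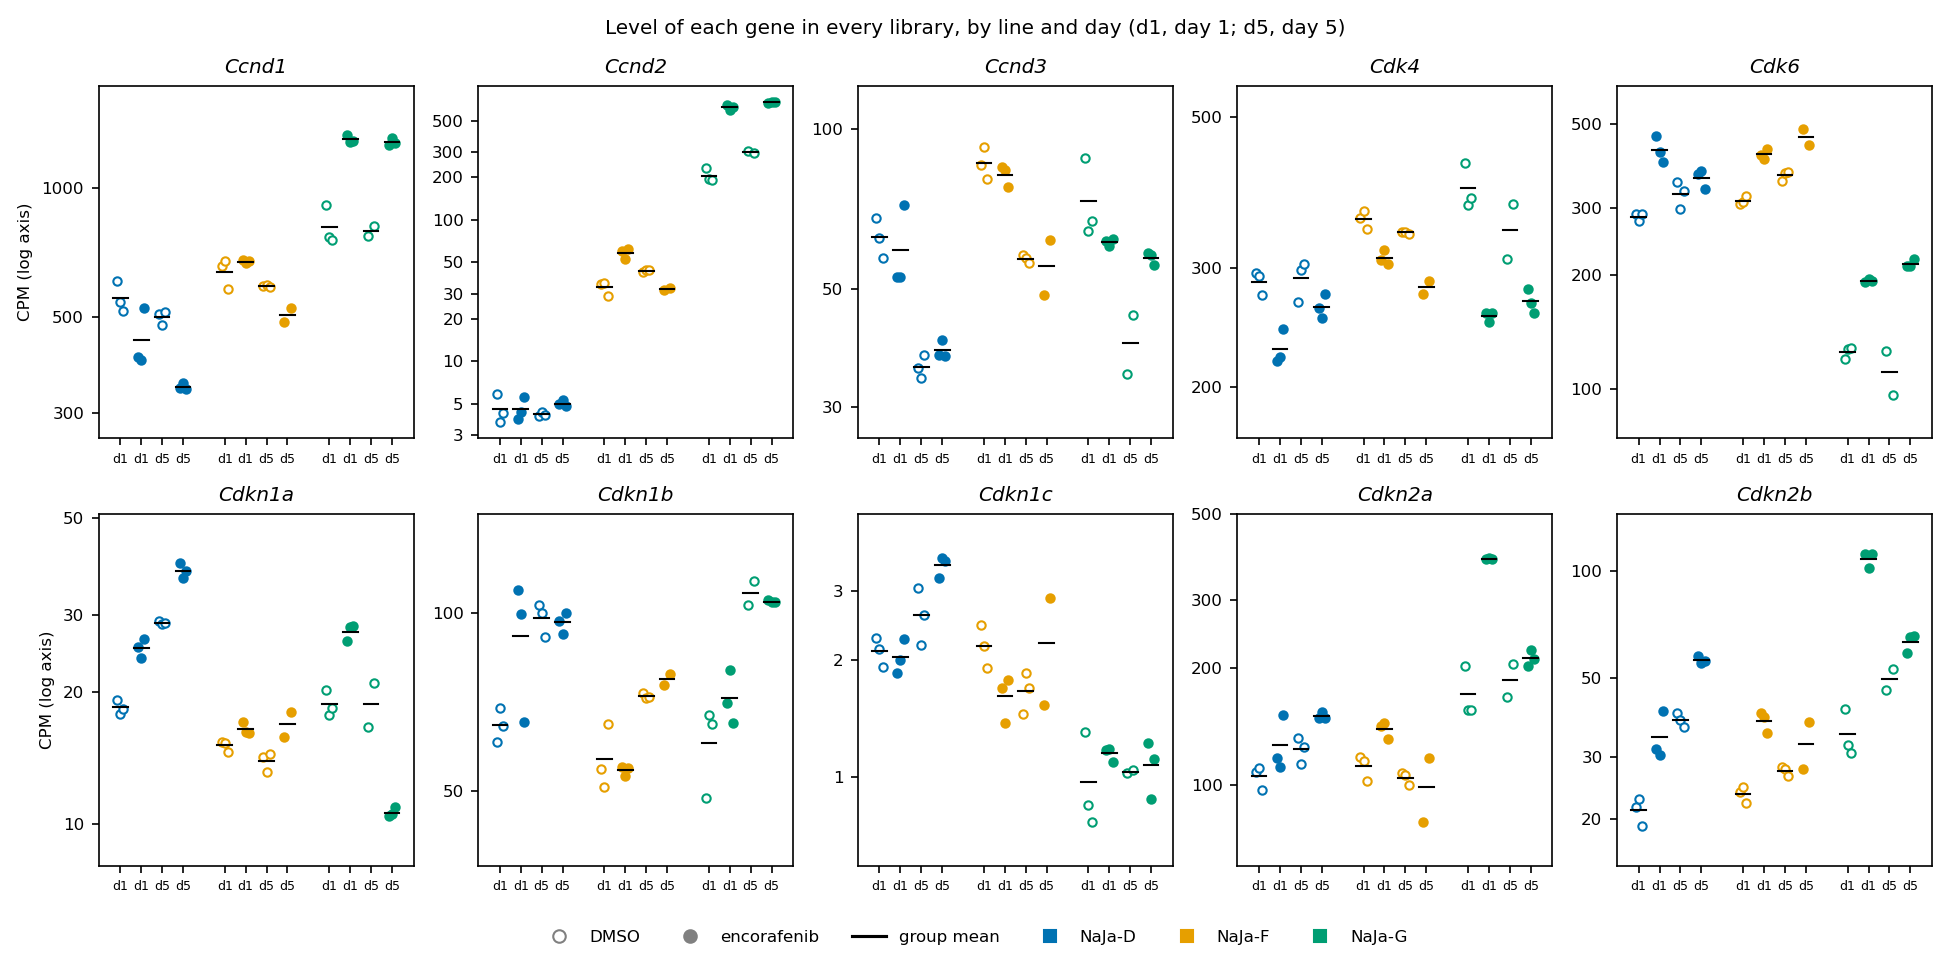
CPM on a log axis (vertical axis) of each of the 10 genes in every library, by line and day (horizontal axis), with open circles for DMSO, filled circles for encorafenib and bars for group means. Ccnd2 spans 3.71 to 674 CPM across the lines, and the encorafenib libraries of NaJa-G at day 5 lie lowest for Cdkn1a, at 10.4 to 10.9 CPM.

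Whether the response to encorafenib itself differed was tested as a difference of differences. The comparisons of a line with the other 2, and of its 2 days, share libraries and are not independent of each other. At day 1 NaJa-G differed from NaJa-D in 5 members, against 36.4% of all genes, and from NaJa-F in 6, against 33.5%. NaJa-F differed from NaJa-D in 1 member, Ccnd2 (log2 0.84, SE 0.185, limma adjusted p = 0.00244), against 8.79% of all genes, and this call was lost without NaJa-D DMSO replicate 1 (limma adjusted p = 0.0232) or encorafenib replicate 1 (limma adjusted p = 0.0198). Ccnd1 responded higher in NaJa-G than NaJa-D by 1.02 at day 1 (SE 0.114, limma adjusted p = 3.8e-08) and by 1.22 at day 5 (SE 0.122, limma adjusted p = 5.63e-09) on the log2 scale. Cdkn2a and Cdkn2b responded higher in NaJa-G than NaJa-D at day 1, by 0.92 (SE 0.163, limma adjusted p = 3.95e-05) and 0.99 (SE 0.154, limma adjusted p = 5.93e-06). For Cdk6 the day 1 responses of NaJa-G and NaJa-D differed by 0.05, with a 95% interval of -0.16 to 0.25.

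At day 5 NaJa-G differed from NaJa-D in 4 members, against 21.9% of all genes, and from NaJa-F in 5, against 24.2%, while NaJa-F differed from NaJa-D in 1, against 8.85%. The response of Cdkn1a was lower in NaJa-G than NaJa-D by 1.21 (SE 0.103, limma adjusted p = 2.98e-10, log2 -1.21). Cdk6 responded higher in NaJa-G than NaJa-D by 0.81 (SE 0.107, limma adjusted p = 7.74e-07).

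Between the days, the responses of 3 inhibitors changed in NaJa-G. From day 1 to day 5 the response of NaJa-G changed by -1.38 for Cdkn1a (SE 0.104, limma adjusted p = 1.73e-11), by -1.31 for Cdkn2b (SE 0.148, limma adjusted p = 3.95e-08) and by -0.98 for Cdkn2a (SE 0.175, limma adjusted p = 4.63e-05). That of Ccnd1 changed by 0.01, with a 95% interval of -0.25 to 0.26, that of Ccnd3 by 0.78 (SE 0.165, limma adjusted p = 0.000357), and that of Ccnd2 by -0.45 (SE 0.122, limma adjusted p = 0.00361, 0.0136 in edgeR and 0.0126 in DESeq2). In NaJa-G 5 members differed between days (1 higher), against 31.7% of all genes. In NaJa-F only Ccnd2 did (log2 -1.25, SE 0.121, limma adjusted p = 1.32e-08), against 5.88% of all genes, and in NaJa-D only Cdk6 (log2 -0.43, limma adjusted p = 0.00466), against 7.29%. The NaJa-D call was lost without any 1 of 6 libraries, namely encorafenib day 1 replicates 1 and 2, encorafenib day 5 replicate 3, DMSO day 1 replicate 2 and DMSO day 5 replicates 1 and 3 (limma adjusted p from 0.01 to 0.0223). Without the library that stood apart, Cdkn1b also passed in NaJa-D (log2 -0.70, limma adjusted p = 0.000412).

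The members act on a pathway whose other genes were followed as lists. Of 13 genes of the RB and E2F axis, 9 fell and 2 rose with encorafenib in NaJa-G at day 1, where 64% of all genes were called, with a median of -0.36 against 0.04 for all genes. The largest fall was that of E2f2, an activator E2F (log2 -2.23, SE 0.094, limma adjusted p = 3.39e-18), and Rbl2, which encodes the RB relative p130, rose (log2 0.78, limma adjusted p = 6.51e-15). E2f2 was lower in each of the 6 comparisons, by 0.48 to 2.23 on the log2 scale. In NaJa-D 5 of the 13 fell and 2 rose at day 1 (44.9% of all genes called), and 6 fell at day 5 (33%). In NaJa-F 4 fell at each day, with 1 rise at day 1 (29.5% of all genes called at day 1 and 18.2% at day 5). The day 5 counts of NaJa-G were 7 fallen and 1 risen (53.2%). These shares of all genes are the background of every list count that follows.

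Of 10 genes of cyclins E and A, CDK2 and their regulators, 7 fell and 1 rose in NaJa-G at day 1 (median -0.84, with 64% of all genes called), where Skp2, which targets p27 for degradation, fell by 1.07. The counts were 7 fallen and 1 risen in NaJa-D at day 1 (44.9% of all genes called) and 7 fallen at day 5 in both NaJa-D (33%) and NaJa-G (53.2%). In NaJa-F they were 5 fallen and 1 risen at day 1 (29.5%) and 2 fallen and 1 risen at day 5 (18.2%). The gene that rose at day 1 in each line, and at day 5 in NaJa-F, was Fbxw7, a ubiquitin ligase subunit that marks cyclin E for destruction. Of the other INK4 genes in that list, Cdkn2c was at -0.27 and Cdkn2d at -0.09 in NaJa-G at day 1, neither called. Of 6 genes of the CDK activating kinase and of D cyclin turnover, at most 3 were called in any encorafenib comparison, among them Fbxo4, which was higher by 0.56 in NaJa-G at day 1.

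Among 14 known transcriptional regulators of the members, 6 rose and 5 fell in NaJa-G at day 1, where 64% of all genes were called. Myc, which is known to activate Cdk4 and Ccnd2 and to repress Cdkn1a and Cdkn2b, fell in NaJa-G by 1.23 at day 1 and 1.05 at day 5, and in NaJa-D and NaJa-F at day 1 (log2 -0.49 and -0.35). Foxo3, an activator of Cdkn1b, rose in NaJa-G at day 1 (log2 0.93), and Klf6, an activator of Cdkn1a, was higher in each of the 6 comparisons, by 0.35 to 0.82. Trp53, which encodes p53, fell in NaJa-G by 0.68 and 0.37 at days 1 and 5. In the other comparisons the risen and fallen were 3 and 4 (NaJa-D day 1, with 44.9% of all genes called), 4 and 2 (NaJa-D day 5, 33%), 3 and 2 (NaJa-F day 1, 29.5%), 2 and 1 (NaJa-F day 5, 18.2%), and 4 and 7 (NaJa-G day 5, 53.2%). All 10 proliferation markers fell with encorafenib in NaJa-D and in NaJa-G at both days, and 4 of 10 fell in NaJa-F at each day, with medians of -1.05 in NaJa-G at day 1 and -0.22 in NaJa-F at day 1. These markers changed in the same libraries as the members, though not always in the same direction, and their part in the members' changes was not tested.

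The genes whose mean log2 CPM over the 12 groups was most like each member are given as a description, over 12 points that share libraries and lines. For Ccnd2 they were Agpat4 (Pearson r = 0.996) and P3h1 (0.995), and for Cdk6 Unc13b (0.995) and Rbm47 (0.991). Cdk4 was most like Trp53 (0.975) and Polr2h (0.967). Cdkn2a was most like Osgep (0.975) and Avpi1 (0.973), and Cdkn2b like Krtap1-5 (0.974) and Map1lc3b (0.972), so the neighbours did not have the same closest genes. The values were lower for Cdkn1a (Ssu72, 0.951) and lowest for Ccnd3 (Ccm2, 0.939). Ccnd1 was most like Ppfibp1 (0.971), Cdkn1b like Baz2b (0.959) and Cdkn1c like Crlf2 (0.964).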

How the data were processed

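RNA of the 34 libraries was sequenced by the authors, who by their processing notes used Trimmomatic 0.39 and STAR 2.5.2b with GRCm38 (mm10). The authors deposited raw counts by gene. The counter, annotation and strand use were not given in the sources used here. The table held 14107 genes, the smallest summed count was 360 (the authors' stated minimum is a sum above 2), and each group came from the titles. The members and gene lists were chosen with earlier results of these data known.

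The fit used limma 3.58.1 in R 4.3.3 (voom, with TMM factors of edgeR 4.0.16 from 0.876 to 1.07), 1 mean per group over all 12 groups, two-sided tests and Benjamini-Hochberg adjustment over 14107 genes. The study's methods name limma, TMM and an adjusted p below 0.01, and do not name voom. Lines were compared in DMSO over the mean of both days. CPM per kilobase used the exon union of GENCODE M21, which gave a symbol for all but 43 identifiers. Log2 CPM for likeness had a prior count of 2, and genes averaging at least 2 were searched. Replicates differed by 3.3 to 84.9 times counting variance, so counting error alone understates the error. Simulated counts for NaJa-D at day 1 gave 78% recovery of log2 changes of 1 and 95% of 1.5, with 1 of 13907 unchanged genes called. The simulation changed 100 genes at each size, while 44.9% of all genes were called in the data, and it held no library that stood apart. Its rates thus check the fit and do not carry over to the real comparison.

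Named genes were taken from the members, in each list and encorafenib comparison the called genes with the highest and lowest log2 fold change, and the 2 most similar genes per member. Others named (the overlap partners of the members, Cdkn2c, Cdkn2d, and Myc, Trp53, Foxo3, Klf6 and E2f2 beyond that rule) were chosen after their values were seen. Alternatives were limma-trend (prior count 3), DESeq2 1.42.0, the quasi-likelihood test of edgeR, RLE scaling, library size only, filterByExpr, the replicate block, only the groups compared, either day alone and leaving out each library. Added after seeing the data were only the groups compared with the replicate block, and calls where a group kept 1 library.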

Additional observations from a re-analysis of the deposited data

Results flagged for a closer look

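The encorafenib response of some members differed between lines or between days by a test of the difference itself (limma, adjusted p below 0.01), and these values are listed without an explanation. All are differences of log2 fold changes.

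At day 1, the response of NaJa-F minus that of NaJa-D differed for Ccnd2 (0.84). NaJa-G minus NaJa-D differed for Ccnd1 (1.02), Ccnd2 (1.63), Cdk4 (-0.29), Cdkn2a (0.92) and Cdkn2b (0.99). NaJa-G minus NaJa-F differed for Ccnd1 (0.60), Ccnd2 (0.79), Cdk4 (-0.44), Cdkn1a (0.43), Cdkn2a (0.85) and Cdkn2b (0.98).

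At day 5, NaJa-F minus NaJa-D differed for Ccnd2 (-0.69). NaJa-G minus NaJa-D differed for Ccnd1 (1.22), Ccnd2 (0.90), Cdk6 (0.81) and Cdkn1a (-1.21). NaJa-G minus NaJa-F differed for Ccnd1 (0.91), Ccnd2 (1.59), Ccnd3 (0.59), Cdk6 (0.62) and Cdkn1a (-1.10).

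Between days, day 5 minus day 1, the response differed in NaJa-D for Cdk6 (-0.43), in NaJa-F for Ccnd2 (-1.25), and in NaJa-G for Ccnd2 (-0.45), Ccnd3 (0.78), Cdkn1a (-1.38), Cdkn2a (-0.98) and Cdkn2b (-1.31). Among these, Ccnd2 at day 5 in NaJa-F minus NaJa-D, Ccnd3 at day 5 in NaJa-G minus NaJa-F and Cdk4 at day 1 in NaJa-G minus NaJa-D lay just past the threshold, with limma adjusted p of 0.0088, 0.00869 and 0.00666, and their calls were lost in 12 of 20, 13 of 19 and 11 of 21 alternatives.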

How the results depend on the processing

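Of 3820 values of the members under alternatives, 3645 kept their side of the threshold, 117 lost a call, 57 gained one and 1 reversed, which was Cdkn1a in NaJa-G against NaJa-D (0.02 at day 1 alone). Among the 3645, 99 values changed sign, all of results not called in either fit, whose reported values were at most 0.36 in size. Among these was Cdkn1c in the NaJa-F minus NaJa-D response at day 5, which went from -0.06 to 0.39 without NaJa-F encorafenib replicate 1. The cause of the changes was not tested, except that fits of fewer libraries have less information on the spread.

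With only the groups compared, the members called were 5 (NaJa-F day 1, encorafenib against DMSO), 5 (NaJa-F over time), 2 (NaJa-G over time), 0 and 2 (NaJa-F minus NaJa-D response, days 1 and 5) and 0 (NaJa-D between days), against 3, 2, 4, 1, 1 and 1. All genes called were 3540 against 6335 (NaJa-D day 1), 1182 against 4804 (NaJa-G over time), 415 against 1240 (NaJa-F minus NaJa-D response, day 1) and 261 against 1029 (NaJa-D between days).

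Samples were not treated as paired by replicate number, since correlations of deviations ranged from -0.292 to 0.48 and no comparison had every pair over 0.1. Between DMSO day 1 of NaJa-G and of NaJa-F, these correlations were 0.346, -0.292 and 0.48 for replicates 1, 2 and 3. Deviations from means of so few libraries constrain each other, so this check cannot exclude pairing. The replicate block over all groups kept every count within 1.5 times, with 6 members and 6321 genes called in NaJa-D at day 1. With only the groups compared and the replicate block, members called were 2 (NaJa-D day 1), 5 (NaJa-F day 1), 5 and 2 (NaJa-F and NaJa-G over time), 0 (NaJa-F minus NaJa-D response, day 1) and 0 (NaJa-D between days). All genes called were then 2933 (NaJa-D day 1), 1652 against 2567 (NaJa-F day 5), 352 (NaJa-G over time), 222 and 3411 (NaJa-F and NaJa-G minus NaJa-D response at day 1, against 1240 and 5134) and 236 (NaJa-D between days).

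Day 1 alone gave 4 members called in place of 7 for NaJa-F against NaJa-D. Library size scaling gave 7 in place of 4 for NaJa-D over time. For the NaJa-F minus NaJa-D response, DESeq2 called 3 members and 2143 genes, limma-trend 2 members and library size scaling 2 members at day 1, and RLE scaling 0 at day 5. Library size scaling also moved the share of higher calls among all genes, from 47.4% to 81.7%, 58.1% to 78.6% and 50.6% to 62.4% over time for lines D, F and G, from 52.9% to 66.5% and 49.4% to 59.9% for NaJa-F and NaJa-G against NaJa-D, from 52.8% to 63.6% in NaJa-D at day 1, and from 51% to 34.7%, 55.5% to 40.2% and 64.3% to 51.4% for the responses of NaJa-F at day 1, NaJa-G at day 1 and NaJa-G at day 5 minus that of NaJa-D. It shifted the median of all genes by 0.12, 0.12 and 0.18 in the 2 line comparisons with NaJa-D and in NaJa-D over time, and by -0.13 in the NaJa-G minus NaJa-D response at day 1.

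Leaving out single libraries gave 0 to 3 members and 645 to 3937 genes for the NaJa-F minus NaJa-D response at day 1 (3937 without NaJa-D encorafenib day 1 replicate 3, 645 without replicate 1 and 752 without replicate 2 of that group, 758 without NaJa-D DMSO replicate 3, 808 without NaJa-F encorafenib replicate 3 and 715 without NaJa-F DMSO replicate 3), 0 to 1 members and 771 to 1308 genes at day 5 (771 without NaJa-F encorafenib replicate 1), 0 to 2 members and 581 to 3104 genes for NaJa-D between days (3104 without encorafenib day 1 replicate 3, 581 without replicate 1 and 645 without replicate 2 of that group, 587 without DMSO day 1 replicate 3, 644 without DMSO day 5 replicate 1 and 671 without encorafenib day 5 replicate 3), 1 to 2 members for NaJa-F between days, and 1462 to 1944 genes for NaJa-F over time (1462 without DMSO day 1 replicate 2, 1572 without DMSO day 5 replicate 3). Where a group kept 1 library, that library was assumed to vary like the other groups. The filter of filterByExpr kept all 14107 genes and changed nothing.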
